A study of Mus musculus with 2 samples.

Results

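Arginine is a substrate shared by competing enzymes in myeloid cells. Arginases split it into urea and ornithine, from which ornithine decarboxylase starts polyamine synthesis, while inducible nitric oxide synthase turns it into nitric oxide and citrulline, and argininosuccinate synthase returns citrulline toward arginine. In mouse macrophages Arg1 is known as a gene of alternative activation and Nos2 as a gene of classical activation. The genes examined here are Slc7a2, which encodes the cationic amino acid transporter CAT-2, Arg1 (cytosolic arginase), Arg2 (mitochondrial arginase), Nos2, Ass1 and Odc1. They were chosen by symbol, and all 6 were found among the 31053 genes of the deposited tables.

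The cells came from the vitreous and a retinal rinse of C57BL/6 mice whose eyes had received zymosan, a yeast cell wall product, and were enriched with Ly6G beads before capture with a 10x 3' kit. Mice of the aCXCR2 library received an antiserum against CXCR2, a chemokine receptor of neutrophils. Those of the NRS library received normal serum, labelled NRS. Zymosan and the bead enrichment were common to both, and neither the number of mice per library nor the time after injection is stated in the labels. Each group was 1 library, so no value has a replicate, no test was possible, and the 95% intervals cover counting error only. Levels are unique molecular identifier (UMI) counts summed over cells, per 1000000 UMIs of the same cells (CPM), and ratios are aCXCR2 over NRS.

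Cells were barcodes with 500 or more UMIs, 200 or more genes and mitochondrial UMIs of 10% or less. The aCXCR2 library kept 4826 cells with a median of 10383.5 UMIs, and the NRS library 5655 cells with a median of 4759 UMIs. Clusters scored from marker lists gave 3 classes. Myeloid-like cells, in which monocytes, macrophages, microglia and dendritic cells were not separated, numbered 1791 in aCXCR2 and 623 in NRS. Neutrophil-like cells numbered 2656 in aCXCR2 and 3627 in NRS, and photoreceptor-like cells 282 and 890. The kept cells were thus not all neutrophil-like despite the Ly6G bead enrichment. The Ly6g transcript stood at 2.13 CPM in aCXCR2 and 0.251 CPM in NRS myeloid-like cells. In neutrophil-like cells it stood at 119 CPM and 11.7 CPM, and in photoreceptor-like cells at 5.31 CPM and 0.419 CPM. Of neutrophil-like cells, 29.9% in aCXCR2 and 2.43% in NRS had a Ly6g UMI. These are RNA counts, so they do not show which cells carried the Ly6G protein. A set of 53 kept barcodes occurred in both libraries. Of these, 42 had over 10 times more UMIs in NRS than in aCXCR2, and 34 were photoreceptor-like in both. They held 1.62% of the UMIs of the aCXCR2 photoreceptor-like class and 31.5% of the NRS one, so the members' levels in that class are also given without them.

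The genes divided by class in both libraries. Slc7a2, Arg1 and Ass1 belonged to the myeloid-like cells, Arg2 was higher in neutrophil-like cells, Nos2 was present in both immune classes, and Odc1 was highest in photoreceptor-like cells. Slc7a2 stood at 46.5 CPM in aCXCR2 and 88.6 CPM in NRS myeloid-like cells, and at 1.87 CPM and 0.907 CPM in neutrophil-like cells. Arg1 stood at 3725 CPM in aCXCR2 and 3647 CPM in NRS myeloid-like cells, and at 74.1 CPM and 32.8 CPM in neutrophil-like cells. The myeloid-like class held 98.5% of Arg1 UMIs in aCXCR2 and 93.7% in NRS.

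**Figure D1:**
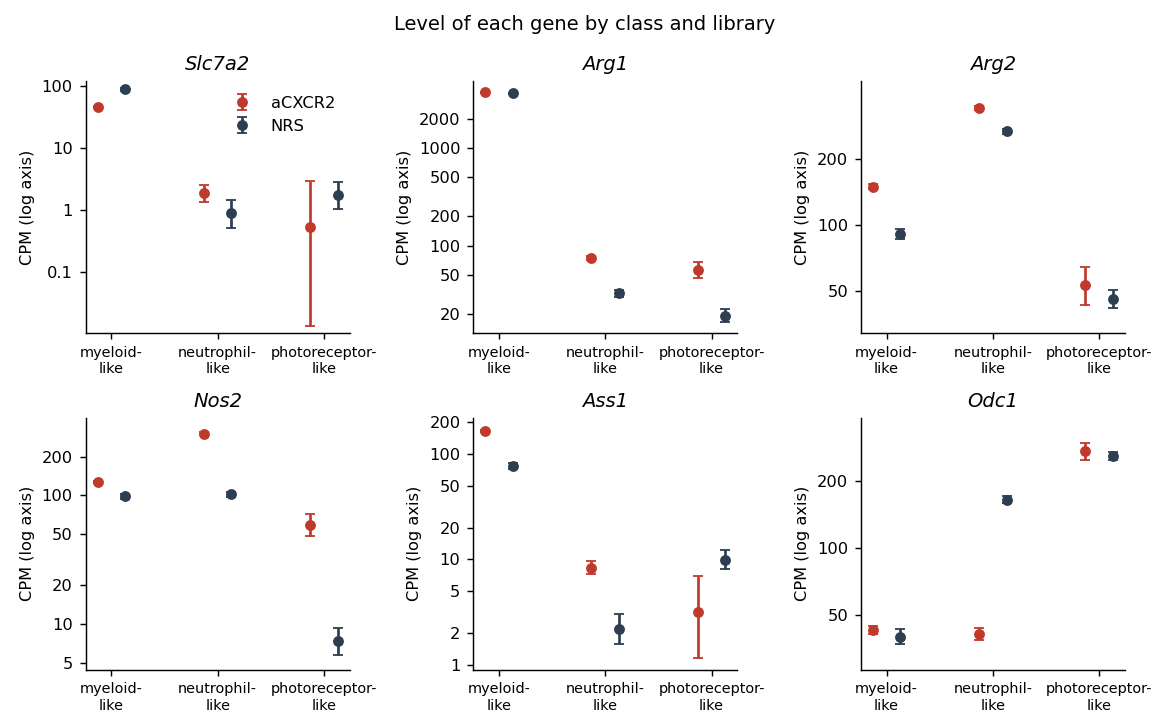
Level of each gene in CPM (log axis) in myeloid-like, neutrophil-like and photoreceptor-like cells of the aCXCR2 library (red) and the NRS library (dark blue), with exact 95% Poisson intervals. Arg1, Slc7a2 and Ass1 are highest in myeloid-like cells, Arg2 in neutrophil-like cells and Odc1 in photoreceptor-like cells, where it reads 272 and 259 CPM.

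Ass1 stood at 166 CPM in aCXCR2 and 76.6 CPM in NRS myeloid-like cells, against 8.36 CPM and 2.21 CPM in neutrophil-like cells. As a ratio of myeloid-like to neutrophil-like cells, Arg1 was 50.3-fold higher in aCXCR2 and 111-fold higher in NRS, Slc7a2 24.9-fold and 97.8-fold, and Ass1 19.8-fold and 34.7-fold. These 3 were the members at least 2-fold higher in myeloid-like cells, as were 29.6% of all genes tested in aCXCR2 and 14.8% in NRS. In the other direction, Arg2 was 2.27-fold higher in neutrophil-like than in myeloid-like cells of aCXCR2 and 2.91-fold higher in NRS. Nos2 passed 2-fold in that direction in aCXCR2 and Odc1 in NRS (4.14-fold), so 2 members did in each library, and 11% and 21.5% of genes did. Odc1 was higher again in photoreceptor-like cells, by 6.35-fold in aCXCR2 and 6.51-fold in NRS over myeloid-like cells, where 52.4% and 49% of genes passed 2-fold. Over neutrophil-like cells it was 6.62-fold higher in aCXCR2 and 1.57-fold higher in NRS, where 62.8% and 41.3% of genes passed.

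Arg2 stood at 339 CPM in aCXCR2 and 266 CPM in NRS neutrophil-like cells, and at 149 CPM and 91.2 CPM in myeloid-like cells. Nos2 stood at 301 CPM in aCXCR2 and 102 CPM in NRS neutrophil-like cells, and at 127 CPM and 98.3 CPM in myeloid-like cells. In aCXCR2 Nos2 was thus 2.38-fold higher in neutrophil-like than in myeloid-like cells, and in NRS the 2 classes lay within the counting interval of each other (log2 ratio, myeloid-like over neutrophil-like, -0.049, interval -0.15 to 0.049). Odc1 stood at 41.1 CPM in aCXCR2 and 165 CPM in NRS neutrophil-like cells, and at 42.9 CPM and 39.8 CPM in myeloid-like cells.

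Over the whole myeloid-like class, Ass1 was the member that moved past 2-fold between libraries, and Arg1 hardly moved. The Ass1 log2 ratio was 1.11 (interval 1.03 to 1.20), that is 2.16-fold higher in aCXCR2. It was 1 of 6 members, while 5.29% of the 7574 genes tested in this class were at least 2-fold apart and the median gene lay at 0.082. Arg2 was 1.64-fold higher (log2 0.71, interval 0.63 to 0.79), a ratio that 5.39% of genes exceeded. Slc7a2 was lower in aCXCR2 (log2 -0.93, interval -1.025 to -0.84), and 2.81% of genes had a lower ratio. Nos2 had a log2 ratio of 0.37 (0.29 to 0.45), Odc1 of 0.11 (-0.020 to 0.24) and Arg1 of 0.031 (0.017 to 0.044). The Ass1 ratio was under 2-fold with a stricter cell filter (log2 0.76), as a mean over cells (0.86) and with each cluster counted once (0.81). Within the 4 larger clusters it passed 2-fold in cluster 4 alone, with 1.98-fold in cluster 11, 1.35-fold in cluster 8 and 1.12-fold in cluster 10. The signs of Arg1 and Nos2 did not hold: with a stricter cell filter they were -0.20 and -0.084. In these cells 17 neutrophil markers summed to 4991 CPM in aCXCR2 and 2640 CPM in NRS, with 12 and 9 at 10 CPM or more and Ngp at 0 in NRS. The 18 photoreceptor markers summed to 49.6 CPM in aCXCR2 and 471 CPM in NRS, with 1 and 9 at 10 CPM or more. Their part in the ratios was not tested.

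**Figure D2:**
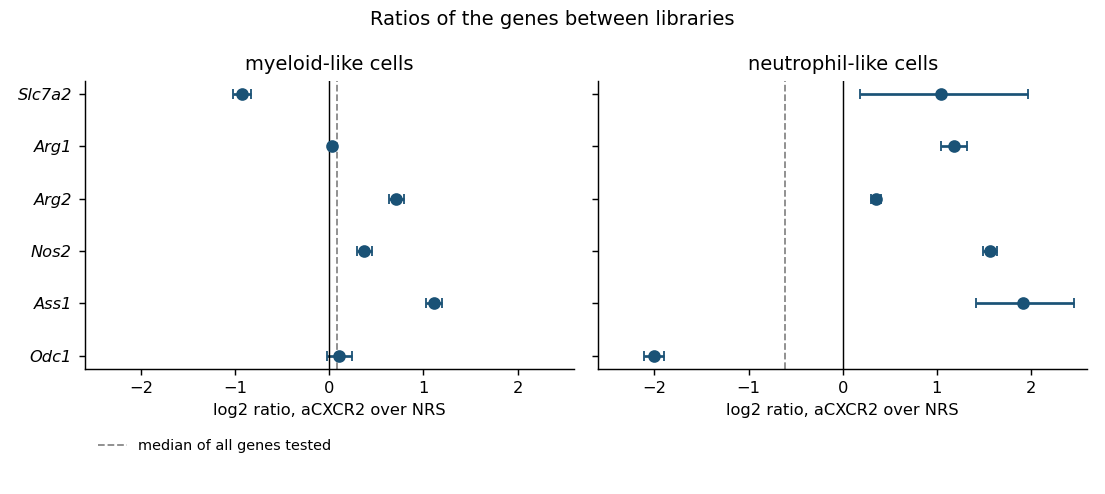
Log2 ratio, aCXCR2 over NRS, of each gene in myeloid-like cells (left) and neutrophil-like cells (right), with exact 95% intervals for counting error; the dashed line is the median of all genes tested in the class, 0.082 and -0.61. Ass1 lies farthest right and Slc7a2 farthest left in myeloid-like cells, and Odc1 lies farthest left in neutrophil-like cells.

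The class ratio of Arg1 covered opposed values, and the libraries filled the myeloid-like clusters unequally. Of aCXCR2 myeloid-like cells, 39.9% were in cluster 4 (leading genes Ccl8, Pf4, Selenop, C1qa and C1qb) and 36.1% in cluster 8 (S100a4, Cd74, Ccr2, H2-Ab1 and H2-Eb1). In NRS these clusters held 23.1% and 6.58% of the class. Cluster 11 (Spp1, Gpnmb, Ctsd, Apoe and Prdx1) held 6.81% of the class in aCXCR2 and 42.7% in NRS, and cluster 10 (Cxcl3, Mmp12, Ptges, Fn1 and Mt2) 15.9% and 24.9%. The 6 genes were left out of the clustering, as were the other pathway genes. They are also left out of these lists of leading genes: Arg1 and Slc7a2 were among the top 10 genes of cluster 10 by fold.

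In cluster 4, which carries the complement genes C1qa and C1qb, 5 of the 6 genes were at least 2-fold higher in aCXCR2, while 2.84% of 7608 genes passed that mark there and the median gene lay at -0.020. None of the 6 was 2-fold lower, where 3.12% of genes were. Arg1 stood at 3340 CPM in 715 aCXCR2 cells and 910 CPM in 144 NRS cells (3.67-fold, log2 1.88, interval 1.83 to 1.92). Nos2 stood at 86.5 CPM in aCXCR2 and 4.84 CPM in NRS, where it had 19 UMIs (log2 4.16, interval 3.51 to 4.90). Slc7a2 stood at 18.7 CPM in aCXCR2 and 4.58 CPM in NRS (log2 2.03, 1.35 to 2.80).

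The recycling enzyme gene Ass1 stood at 73.9 CPM in aCXCR2 and 23.2 CPM in NRS cluster 4 (log2 1.67, interval 1.37 to 1.99). Arg2 stood at 169 CPM in aCXCR2 and 81.2 CPM in NRS (log2 1.06, 0.89 to 1.22). Odc1 was the gene that did not follow, at 50.2 CPM in aCXCR2 and 51.9 CPM in NRS (log2 -0.050, -0.27 to 0.17). Markers of other cells differed between the libraries in this cluster. Of 17 neutrophil markers, 12 reached 10 CPM in aCXCR2 and 7 in NRS, with summed levels of 4195 CPM in aCXCR2 and 2241 CPM in NRS, and Retnlg and Ngp were at 0 in NRS. The 18 photoreceptor markers summed to 35.6 CPM in aCXCR2 and 388 CPM in NRS. Their part in the result was not tested. With the stricter cell filter, chosen for single clusters after seeing the data, the Arg1 log2 ratio of cluster 4 was 1.48 and that of Ass1 1.28.

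**Figure D3:**
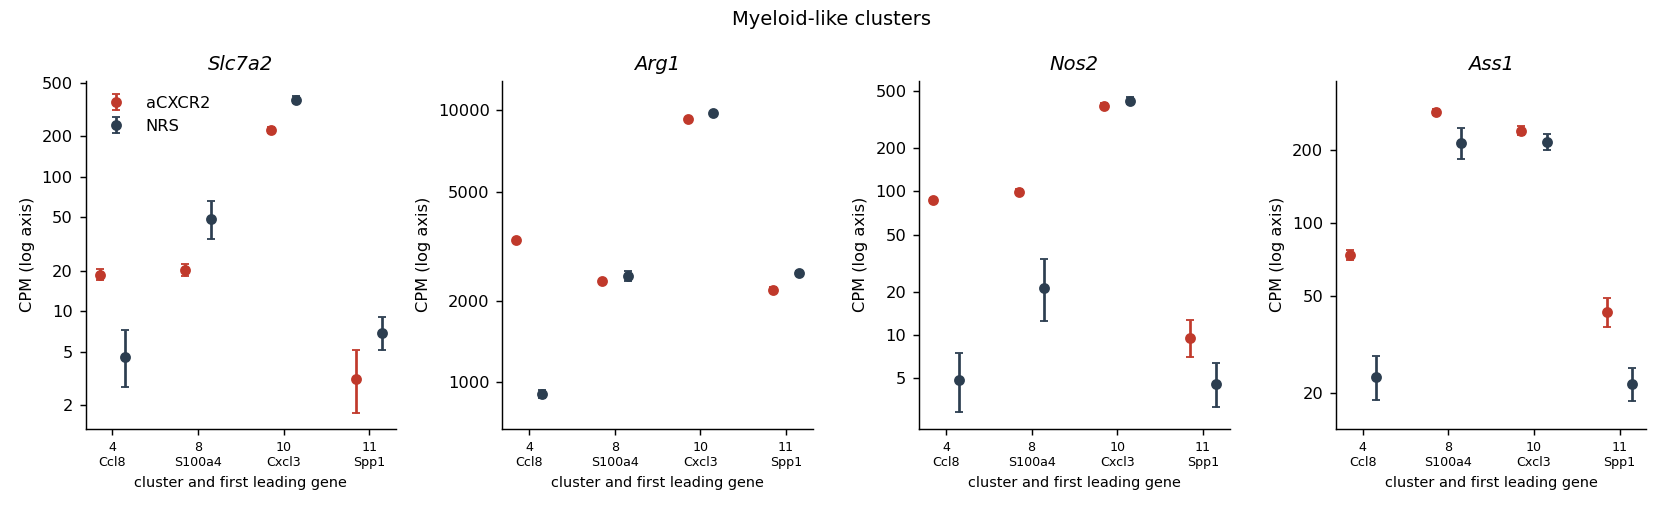
Slc7a2, Arg1, Nos2 and Ass1 in CPM (log axis) in the 4 myeloid-like clusters that have 20 or more cells per library, named by number and first leading gene, for aCXCR2 (red) and NRS (dark blue) with exact 95% Poisson intervals. The libraries are far apart in cluster 4, where Arg1 reads 3340 and 910 CPM, and close in cluster 10, where it reads 9275 and 9752 CPM.

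Cluster 10, led by the chemokine gene Cxcl3 and the macrophage elastase gene Mmp12, had the highest Arg1, Nos2 and Slc7a2 levels of the myeloid-like clusters in both libraries. There Arg1 stood at 9275 CPM in aCXCR2 and 9752 CPM in NRS, and Nos2 at 396 and 429 CPM, so that the libraries differed by log2 -0.072 and -0.11. Slc7a2 was lower in aCXCR2, at 223 CPM, than in NRS, at 376 CPM (log2 -0.75, interval -0.86 to -0.65), where the median gene lay at 0.16. No member passed 2-fold there in either direction, where 1.91% of genes were that much higher and 0.981% lower. Of the UMIs of myeloid-like cells, this cluster held 43.9% in aCXCR2 and 94.8% in NRS for Nos2, 67.4% and 92.2% for Slc7a2, and 35.0% and 58.1% for Arg1. Its myeloid score, 0.29, was the lowest of the myeloid-like clusters, with neutrophil second at 0.18. The 17 neutrophil markers summed to 7147 CPM in aCXCR2 and 4814 CPM in NRS, and the 30 myeloid markers to 6757 and 6701 CPM. Their part in these levels was not tested.

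Cluster 8, with the monocyte chemokine receptor gene Ccr2 and MHC class II genes, had Arg1 at 2357 CPM in aCXCR2 and 2465 CPM in NRS. It had 646 aCXCR2 cells and 41 NRS cells. Nos2 stood at 99.8 CPM in aCXCR2 and 21.3 CPM in NRS, where it had 18 UMIs (log2 2.23, interval 1.57 to 2.99). Arg2 stood at 148 and 67.4 CPM (1.14, 0.76 to 1.54). Slc7a2 went the other way, at 20.4 CPM in aCXCR2 and 48.4 CPM in NRS (-1.25, -1.71 to -0.74). Genes past 2-fold made up 3.31% upward and 4.29% downward in this cluster. Ass1 reached 287 CPM in aCXCR2 and 213 CPM in NRS, and this cluster held 56.7% of the Ass1 UMIs of the class in aCXCR2 and 14.8% in NRS.

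Cluster 11, led by Spp1 (osteopontin) and Gpnmb, had the lowest Ass1 level of the 4 larger clusters in both libraries, at 43.0 CPM in aCXCR2 and 21.8 CPM in NRS. Arg1 stood at 2194 CPM in aCXCR2 and 2522 CPM in NRS, and none of the 4 members that reached 10 CPM in this cluster was 2-fold apart, where 0.48% of genes were that much higher and 1.22% lower. Nos2, at 9.56 CPM in aCXCR2 and 4.60 CPM in NRS, and Slc7a2, at 3.12 and 6.90 CPM from 15 and 51 UMIs, stayed under 10 CPM there and so were not among the genes tested. Cluster 16, led by H2-Eb1, H2-Aa, Cd74, H2-Ab1 and Cst3, held 24 aCXCR2 and 17 NRS cells. In it Arg1 stood at 370 and 24.7 CPM and Ass1 at 235 and 155 CPM. Counting each of the 4 larger clusters once, the log2 ratio was 0.38 for Arg1, 0.70 for Arg2, 1.83 for Nos2, -0.28 for Slc7a2, 0.81 for Ass1 and 0.0044 for Odc1, an average chosen after seeing the data.

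Single cells showed how the levels were spread. Myeloid-like cells had a median of 72 Arg1 UMIs in aCXCR2 (quartiles 19 and 159, highest 805) and of 15 in NRS (1 and 118.5, highest 1192), at median depths of 29983 and 23170 UMIs. The 10% of cells with the most Arg1 held 36.7% of its UMIs in aCXCR2 and 51.5% in NRS. Slc7a2 was more uneven, with 83.6% of its UMIs in the top 10% of aCXCR2 cells and 91.4% in the top 10% of NRS cells. At an equal depth of 1000 UMIs a cell, Arg1 was seen in 73.0% of aCXCR2 and 59.5% of NRS myeloid-like cells, while photoreceptor-like cells, with median depths of 4862.5 and 4163 UMIs, gave 6.55% and 2.52%. Before thinning, 94.9% of aCXCR2 and 77.7% of NRS myeloid-like cells had an Arg1 UMI. Thinning left out 8 and 13 myeloid-like, 45 and 213 neutrophil-like, and 53 and 97 photoreceptor-like cells. Ass1 was seen in 14.8% of aCXCR2 and 9.51% of NRS myeloid-like cells, and Slc7a2 in 3.59% and 7.54%.

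The enzymes of Arg1 and Nos2 use the same substrate, and their joint detection was counted cell by cell. At 10000 UMIs a cell, a depth chosen after seeing the data, 1684 aCXCR2 and 396 NRS myeloid-like cells remained. Of the aCXCR2 cells 562 had both, 947 Arg1 alone and 37 Nos2 alone, and of the NRS cells 80 had both, 232 Arg1 alone and 1 Nos2 alone. Arg1 was seen in 89.6% of these aCXCR2 cells and 78.8% of the NRS cells and Nos2 in 35.6% and 20.5%. At 1000 UMIs the counts with both were 150 of 1783 cells in aCXCR2 and 40 of 610 in NRS.

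In cluster 10 the share with both was 67.4% of 267 aCXCR2 cells and 68.8% of 109 NRS cells. Nearly all cells of this cluster had Arg1, 99.3% in aCXCR2 and 99.1% in NRS, so these values are those of Nos2, at 67.8% and 68.8%. In cluster 4 it was 31.4% of 682 aCXCR2 cells and 2.86% of 105 NRS cells, with Arg1 in 97.7% and 55.2% and Nos2 in 31.7% and 3.81%. Cluster 8 had both in 26.0% of 628 aCXCR2 cells and in 2 of 31 NRS cells. In cluster 11 Nos2 was seen in 6 of 89 aCXCR2 cells and in 0 of 142 NRS cells, which allows a share of up to 2.11% with a UMI at this depth. Those were 142 of the 266 NRS cells of the cluster, the others being shallower, and before thinning the 266 cells held 34 Nos2 UMIs. Slc7a2 was also detected beside Nos2: at 1000 UMIs, 11.8% of aCXCR2 cells with Nos2 had Slc7a2 and 2.68% of those without, and in NRS the shares were 34.1% and 5.48%. These shares pool the clusters, and this pair was not counted within clusters. Cluster 10 held 43.9% of the Nos2 and 67.4% of the Slc7a2 UMIs of the class in aCXCR2, and 94.8% and 92.2% in NRS. Doublets were not removed from these counts.

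**Figure D4:**
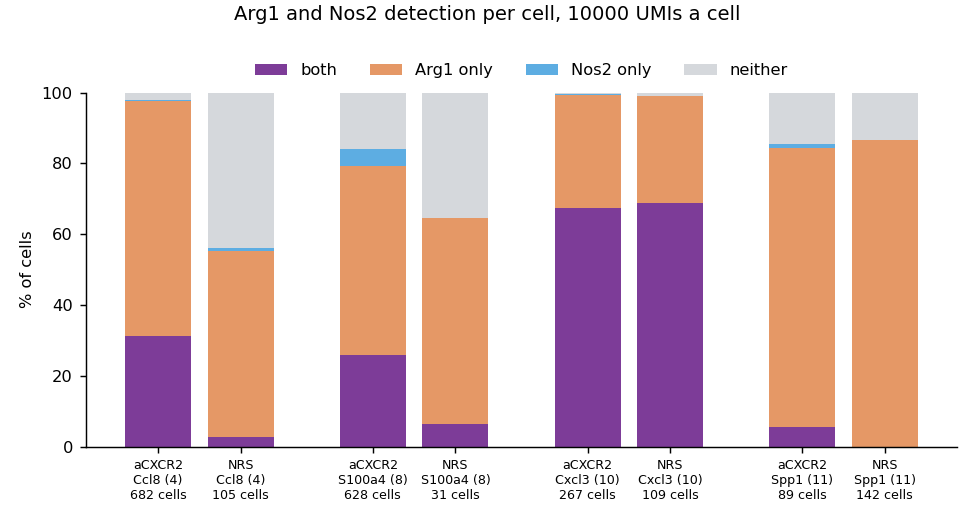
Share of cells, in %, with UMIs of both Arg1 and Nos2, of Arg1 alone, of Nos2 alone or of neither, in 4 myeloid-like clusters (first leading gene and number below the bars) of aCXCR2 and NRS, after thinning each cell to 10000 UMIs. Both are seen together in 67.4% and 68.8% of cells of cluster 10, and in 31.4% and 2.86% of cells of cluster 4.

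In neutrophil-like cells taken as 1 class, Nos2 was higher and Odc1 lower in aCXCR2, and Arg2 stayed under 2-fold when scaled by total UMIs. The libraries filled the clusters of the class unequally. Nos2 was 2.97-fold higher (log2 1.57, interval 1.49 to 1.64), where 3.5% of the 7392 genes tested passed 2-fold upward. Arg1 also passed (log2 1.18), so 3 of the 4 members that reached 10 CPM were 2-fold apart, against 29.9% of genes. Arg1 was under 2-fold without the highest doublet scores (0.99), with each cluster counted once (0.94), as a mean over cells (0.83) and with photoreceptor-like CPM subtracted (0.35). Odc1 was 4.01-fold lower in aCXCR2 (log2 -2.00, interval -2.11 to -1.90), where 26.4% of genes were at least 2-fold lower and the median gene lay at -0.61. Its ratio was below that of all but 2.75% of genes, and 1.39 below the median gene. With each cluster counted once the Odc1 value was -1.10, and none of the 7 clusters reached the class value. TMM factors, which trim the most extreme genes when scaling, raised every ratio of this class by 0.70, turned 259 higher and 1954 lower genes into 863 and 379, and gave 2.27 for Nos2, -1.31 for Odc1 and 1.05 for Arg2, which had 0.35 (0.30 to 0.40) when scaled by total UMIs. Marker levels moved with the libraries: 17 neutrophil markers summed to 178777 CPM in aCXCR2 and 43841 CPM in NRS, with 17 and 16 of them at 10 CPM or more. Their part in these ratios was not tested.

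Clusters 0 and 1 carried the name on the lowest neutrophil scores of the class, 0.207 and 0.322. They held 4.03% and 3.43% of the class in aCXCR2 and 34.0% and 27.3% in NRS. Neither had a neutrophil marker among its top 10 genes. Cluster 2, with the next lowest score (0.405), had none either and was kept in the values that follow. Cluster 1 was led by Gsto1, BC100530, Plet1, Psca and the keratin gene Krt13, and its Krt13 UMIs lay in 3.30% of its aCXCR2 cells and 0.303% of its NRS cells. The 17 neutrophil markers summed to 37549 CPM in aCXCR2 and 33662 CPM in NRS in cluster 1, with 15 and 14 at 10 CPM or more, and to 15484 and 9188 CPM in cluster 0, with 12 and 14. Without cluster 1, an exclusion chosen after seeing the data, Nos2 was at log2 1.26, Arg1 at 1.13, Arg2 at 0.26 and Odc1 at -2.08. Without both clusters, also chosen so, Nos2 was at 0.75, Arg1 at 0.95, Arg2 at -0.018 and Odc1 at -1.54, so that Odc1 alone of these 4 was 2-fold apart. The genes 2-fold apart then numbered 616 of 6696, with 110 higher and 506 lower, and the median gene lay at -0.37.

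Nos2 did not differ alike in the 7 neutrophil-like clusters. In cluster 9, led by Ifitm1 and S100a9 and with the interferon-inducible genes Gbp2 and Cxcl10, it stood at 357 CPM in 514 aCXCR2 cells and 17.2 CPM in 115 NRS cells (log2 4.38, interval 3.45 to 5.51). In cluster 5, led by Retnlg and Cxcr2, it stood at 199 CPM in 435 aCXCR2 cells and 13.9 CPM in 379 NRS cells (log2 3.85, 3.19 to 4.59). In cluster 7, led by the chemokine genes Ccl4 and Cxcl2, it stood at 566 CPM in 466 aCXCR2 cells and 220 CPM in 230 NRS cells (log2 1.36, 1.18 to 1.55). The NRS values of clusters 9 and 5 rested on 9 and 19 UMIs.

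In clusters 2, 3 and 0 the libraries were near each other in Nos2. In cluster 2 (Prok2, Gadd45b, Ccl3) it stood at 339 CPM in aCXCR2 and 300.1 CPM in NRS (log2 0.17, interval 0.032 to 0.32). Cluster 3 (Wfdc21, Pglyrp1, Lcn2) had 134 and 146 CPM and cluster 0 (Itpr2, Gadd45b, Ccrl2) 76.8 and 69.8 CPM, with intervals of the ratio that included 0. In cluster 1 Nos2 was 2.09-fold higher, at 52.1 CPM in aCXCR2 and 24.9 CPM in NRS (log2 1.06, interval 0.44 to 1.65), from 31 and 115 UMIs. Genes 2-fold or more higher were 2.41% of those tested in cluster 9, 1.93% in cluster 5, 2.2% in cluster 7, 8.52% in cluster 1, 2.08% in cluster 2, 4.24% in cluster 3 and 2.43% in cluster 0. The fullest clusters were 3, 9, 7 and 5 in aCXCR2 and 0, 1 and 2 in NRS.

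At 1000 UMIs a cell, Nos2 was seen in 17.9% of 2611 aCXCR2 and 7.62% of 3414 NRS neutrophil-like cells, and the photoreceptor-like shares were 1.75% and 0.757%. Before thinning the neutrophil-like shares were 47.4% and 18.0%. Median depths before thinning were 7653 UMIs in aCXCR2 and 4568 UMIs in NRS. Myeloid markers summed to 1020 CPM in aCXCR2 and 1064 CPM in NRS neutrophil-like cells, where 15 and 11 of 30 reached 10 CPM. Cd209a was at 0 in both libraries and Flt3 in aCXCR2. Their part in the Nos2 difference was not tested.

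**Figure D5:**
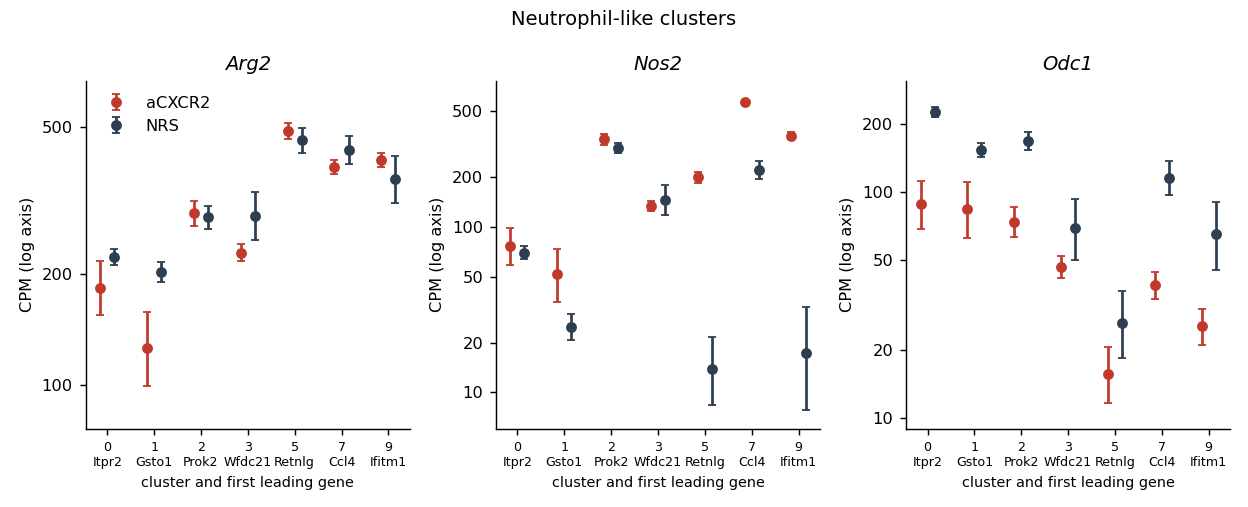
Arg2, Nos2 and Odc1 in CPM (log axis) in the 7 neutrophil-like clusters, named by number and first leading gene, for aCXCR2 (red) and NRS (dark blue) with exact 95% Poisson intervals. Nos2 is far apart in clusters 5 and 9 and near in clusters 0, 2 and 3, and Odc1 is lower in aCXCR2 in each cluster, with overlapping intervals in clusters 3 and 5.

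Odc1, which encodes the enzyme that makes putrescine from ornithine, was lower in aCXCR2 in each of the 7 clusters, with log2 ratios between -1.59 in cluster 7 and -0.57 in cluster 3. It stood at 88.5 CPM in aCXCR2 and 226 CPM in NRS cells of cluster 0, which held 50.8% of the Odc1 UMIs of the NRS class. In cluster 2 it stood at 73.5 and 168 CPM, in cluster 7 at 38.5 and 116 CPM, and in cluster 9 at 25.4 and 64.8 CPM. Against the median gene of the same cluster, at -0.14, -0.23, -0.52 and -0.63, these ratios of -1.35, -1.19, -1.59 and -1.35 were lower. In cluster 5 the ratio of -0.75 was near the median gene, at -0.64, and in cluster 1 the values were -0.87 and -0.39, in cluster 3 -0.57 and -0.090. Genes 2-fold or more lower were 5.72% in cluster 0, 6.31% in cluster 2, 16.4% in cluster 7, 27.4% in cluster 9, 24.7% in cluster 5, 14.1% in cluster 1 and 5.52% in cluster 3.

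The share of cells with an Odc1 UMI at 1000 UMIs was 4.44% in aCXCR2 and 13.6% in NRS, and 22.6% and 36.9% before thinning. Photoreceptor-like cells expressed Odc1 themselves, with 21.4% and 20.6% of cells. Photoreceptor markers were part of the neutrophil-like sums, at 116 CPM in aCXCR2 and 1057 CPM in NRS over 18 markers, with Arr3 at 0 in aCXCR2. In the photoreceptor-like cells themselves they summed to 35579 CPM and 48800 CPM. Their part in the Odc1 difference was not tested. Without cluster 0, an exclusion chosen after seeing the data, Odc1 was at log2 -1.70 and Nos2 at 1.36.

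Arg2 was highest in cluster 5, led by Retnlg and Cxcr2, at 487 CPM in aCXCR2 and 460.2 CPM in NRS. Within clusters its log2 ratio ran from -0.68 in cluster 1 to 0.17 in cluster 9, and with each cluster counted once it was -0.16, opposite in sign to the class value of 0.35. These values are scaled by total UMIs. Arg2 lay above the median gene in clusters 2 (0.036 and -0.23), 5 (0.082 and -0.64), 7 (-0.15 and -0.52) and 9 (median -0.63). It lay below the median gene in clusters 0 (-0.28 and -0.14), 3 (-0.33 and -0.090) and 1 (median -0.39). The class value was 0.96 above the median gene, and 89.2% of genes had a lower ratio. The share of cells with an Arg2 UMI was 28.6% in aCXCR2 and 23.0% in NRS, and in photoreceptor-like cells 3.49% and 4.41%.

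The other genes were near the photoreceptor-like level or under 10 CPM in neutrophil-like cells. Arg1 at 1000 UMIs was seen in 6.43% of aCXCR2 and 2.90% of NRS cells, inside the photoreceptor-like intervals of 3.71 to 10.6% and 1.55 to 3.87%. In CPM the neutrophil-like level was above the photoreceptor-like one by log2 0.38 (interval 0.10 to 0.68) in aCXCR2 and 0.77 (0.52 to 1.01) in NRS. Of the 1745 Arg1 UMIs in aCXCR2 neutrophil-like cells, 39.6% lay in 27 cells, and cluster 3 held 45.9%. Slc7a2 and Ass1 stayed under 10 CPM, from 44 and 16 UMIs of Slc7a2 and 197 and 39 UMIs of Ass1 in aCXCR2 and NRS.

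Photoreceptor-like cells were the class with the highest Odc1, at 272 CPM in aCXCR2 and 259 CPM in NRS (log2 0.070, interval -0.070 to 0.21), and 274 and 254 CPM without shared barcodes. Without those barcodes Nos2 stood at 59.4 CPM in aCXCR2 and 6.73 CPM in NRS, Arg2 at 54.0 and 51.4 CPM, Ass1 at 2.70 and 12.2 CPM and Slc7a2 at 0.540 and 1.83 CPM. Of 4 members that reached 10 CPM there, Arg1 and Nos2 were at least 2-fold higher in aCXCR2, where 3.5% of 9352 genes were, 1.05% were as far lower and 4.54% were 2-fold apart either way. Nos2 stood at 59.0 CPM in aCXCR2 and 7.33 CPM in NRS, and 63.1% of the aCXCR2 UMIs came from 3 cells. Its log2 ratio was 3.01, and 0.83 without the highest doublet scores. Arg1 stood at 56.9 CPM in aCXCR2 and 19.3 CPM in NRS, and at 52.9 and 24.9 CPM without shared barcodes. The larger photoreceptor-like clusters differed in direction, with Arg1 at 59.0 CPM in aCXCR2 and 12.7 CPM in NRS in cluster 6, and at 56.9 and 112 CPM in cluster 13. Myeloid markers summed to 511 CPM in aCXCR2 and 387 CPM in NRS in these cells, and neutrophil markers to 13467 and 3326 CPM. Folr2, Cd209a, Xcr1, Clec9a and Ccr7 were at 0 in aCXCR2, and Flt3, Cd209a, Clec9a, Ccr7 and Ngp in NRS.

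Outside the 3 classes, Ass1 had a further site. Unnamed cluster 14, led by Ttr, Ptgds, Clu, Igfbp7 and Cp, had Ass1 at 85.1 CPM in 27 aCXCR2 cells and 591 CPM in 101 NRS cells, from 13 and 506 UMIs. Slc7a2 stood at 138 CPM in aCXCR2 and 78.3 CPM in NRS in that cluster. Of all Ass1 UMIs, 0.589% in aCXCR2 and 29.8% in NRS lay outside the 3 classes. Arg1 also stood at 2749 CPM in the 83 NRS cells of lens cluster 15, led by crystallin genes, where 766 of its 1255 UMIs came from 1 barcode. Over all kept cells, Ass1 stood at 114 CPM in aCXCR2 and 40.5 CPM in NRS (log2 1.49) and Odc1 at 48.9 and 141 CPM (-1.53), where 3.78% of 8837 genes passed 2-fold upward, 16.9% downward and 20.7% either way. Arg1, at log2 0.96, and Slc7a2, at -0.012, did not pass 2-fold, and Nos2, at 1.13, did.

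The rest of the pathway, 57 listed genes, mostly stayed within 2-fold in myeloid-like cells. Of 38 that reached 10 CPM, 2 were 2-fold or more higher and 0 lower in aCXCR2, where 2.85% and 2.44% of all genes were, and their median was 0.16 against 0.082 for all genes. Among them was Irf1, a transcription factor gene of interferon signalling, at 151 CPM in aCXCR2 and 71.2 CPM in NRS (log2 1.08, interval 0.99 to 1.17). Among the 10 upstream regulators the median was 0.71. Il4ra, a chain of the receptors for interleukin 4 and interleukin 13, had 0.92, Cebpb, a transcription factor gene, 0.72 and Hif1a, of the oxygen-sensing pathway, 0.87.

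Medians of the other pathway groups lay closer to 0 than that of the upstream regulators, though single genes did not all do so. Of 14 polyamine genes measured in myeloid-like cells the median was -0.051, with values from -0.84 to 0.22. The antizyme gene Oaz1, which holds ornithine decarboxylase down, stood at 829 CPM in aCXCR2 and 837 CPM in NRS, and Sat1, the acetyltransferase gene of polyamine breakdown, at 309 and 443 CPM (log2 -0.52). Asl, which completes citrulline recycling after Ass1, stood at 41.2 CPM in aCXCR2 and 29.7 CPM in NRS (0.47). Gch1, the first enzyme gene for the cofactor of nitric oxide synthase, had 44.3 and 38.8 CPM (0.19). Slc3a2, the heavy chain of several amino acid transporters, had 249 and 255 CPM (-0.032). Cps1 and Otc, the mitochondrial urea cycle genes of liver, had 0 UMIs in both libraries.

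In neutrophil-like cells 33 pathway genes were measured. Of these, 3 were 2-fold or more higher in aCXCR2, where 3.5% of all genes were. They included Irf1 (272 CPM in aCXCR2 and 101 CPM in NRS, log2 1.42) and Il4ra (277 and 111 CPM, 1.31). A further 9 were 2-fold or more lower, where 26.4% of all genes were, and they included the spermidine and spermine synthase genes Srm (-1.83) and Sms (-1.28), the hypusine enzyme genes Dhps (-1.28) and Dohh (-1.42), Asl (-1.15) and the arginine methyltransferase genes Prmt5 (-2.06) and Prmt1 (-1.30). The median of the 33 was -0.24, against -0.61 for all genes. With TMM factors 11 were 2-fold or more higher and 2, Srm and Prmt5, lower, where 863 and 379 of all 7392 genes were. In photoreceptor-like cells 4 of 39 were higher and 0 lower, where 3.5% and 1.05% of all genes were. Among the 4 was Slc7a1, the transporter CAT-1, at 50.5 CPM in aCXCR2 and 16.1 CPM in NRS.

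Across 33 profiles of cluster and library with at least 20 cells, the genes most like each member were sought among 7774 genes by Pearson correlation of log2(CPM + 10). These correlations are descriptions, since profiles of a library share its depth and free RNA. Arg1 ran closest to F13a1 (r = 0.96), Msr1 (0.94), Pf4 (0.94), Ms4a6d and Tbxas1. Arg2 ran closest to Cd300lf (0.94), Lilrb4a, Ccr1, Cd33 and Cebpb, and Slc7a2 to Met (0.96), Pcdh7, Clmp, Il1r1 and Cav1. Nos2 had no equally close partner, with Gys1 at 0.79 and Il12a, Fpr1, Cxcl3 and Pfkfb3 after it. Ass1 ran closest to Crip1 (0.88), Tubb2a, Tmsb10, Ccdc50 and Vim, and Odc1 to Usp37 (0.91), Ilf2, Eif3g, Sdhaf1 and Rbmx2. Among the members, Slc7a2 and Ass1 had the highest correlation (0.79), followed by Arg1 and Ass1 (0.61), Arg2 and Nos2 (0.59) and Arg1 and Slc7a2 (0.55), while Arg1 and Nos2 had 0.16.

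In the GENCODE annotation of GRCm38, Slc7a2 (ENSMUSG00000031596) lies on chromosome 8 at 40862396 to 40922308, Arg1 (ENSMUSG00000019987) on chromosome 10 at 24915221 to 24927484, and Arg2 (ENSMUSG00000021125) on chromosome 12 at 79130777 to 79156301. Nos2 (ENSMUSG00000020826) lies on chromosome 11 at 78920787 to 78960254, Ass1 (ENSMUSG00000076441) on chromosome 2 at 31470207 to 31520672, and Odc1 (ENSMUSG00000011179) on chromosome 12 at 17544794 to 17551505. Arg2 overlaps Vti1b and Gm48780 and Slc7a2 overlaps Gm26584, each on the opposite strand, and Odc1 holds a small nucleolar RNA gene. Whether counting used strand is not stated in the sources used here, so a part of the Arg2 and Slc7a2 counts could belong to those neighbours.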

How the data were processed

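The authors deposited raw UMI counts, whole numbers for each gene in each barcode. Per the submitters' processing notes, Cell Ranger and Seurat were used, with no version given, and the build is GRCh38, a human one. The gene IDs are mouse, and 30934 of 31053 are in the GENCODE annotation from which positions were read. Which mouse build the authors counted on is not stated. The headers give software version 3.0.0. Kept barcodes had 500 or more UMIs, 200 or more genes and no more than 10% of UMIs from mitochondrial genes. Scrublet (scanpy 1.11.5) called 4 aCXCR2 and 0 NRS cells, so doublets must be taken to remain. Both libraries were clustered together (2000 variable genes, 30 components, 15 neighbours, leidenalg 0.10.2 at resolution 1), without the 6 genes and the pathway list. Of 4826 and 5655 cells, 7 and 12 with over 10% of UMIs in erythroid markers joined no class. The scoring rule for naming clusters and this exclusion were set after seeing the data. The members and lists were chosen with earlier results of these data known.

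Genes were tested where 1 library had at least 10 CPM. Intervals are exact Poisson for CPM, Clopper-Pearson for shares and exact conditional for ratios, and UMIs of a library are not independent animals. Named genes are the 6 members; of the pathway list, up to 5 genes each way among those 2-fold or more apart and the 2 most abundant of each group; the 5 most correlated genes per member; and the 5 leading genes of each cluster. Cebpb, Hif1a, Asl, Sat1, Slc7a1, Cps1 and Otc were named after their values were seen where they fall outside it. The 2-fold rule and the intervals were run on simulated independent Poisson counts. Such counts hold no spread between cells or libraries, so that run says nothing about it. TMM factors came from edgeR 4.0.16 (R 4.3.3). Python 3.11.15, numpy 2.4.6 and scipy 1.17.1 did the rest. Some genes that the rule covers are not reported here.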

Additional observations from a re-analysis of the deposited data

Results flagged for a closer look

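Slc7a2 moved in opposite directions in the immune classes, at log2 -0.93 in myeloid-like cells and 1.04 in neutrophil-like cells, aCXCR2 over NRS, both with counting intervals that exclude 0. The neutrophil-like value rests on 44 UMIs in aCXCR2 and 16 in NRS, at 1.87 and 0.907 CPM, under the minimum of 10 CPM. Within myeloid-like clusters the direction was not uniform, at 2.03 in cluster 4 and -1.25, -0.75 and -1.15 in clusters 8, 10 and 11. The difference between classes was not tested.

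Ass1 was higher in aCXCR2 in myeloid-like cells (log2 1.11) and neutrophil-like cells (1.92) and lower in photoreceptor-like cells (-1.64). The photoreceptor-like value rests on 6 UMIs in aCXCR2 and 95 in NRS. It turned positive at resolution 0.5, at resolution 2, with libraries clustered separately and with the members kept in the clustering. The difference was not tested.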

How the results depend on the processing

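With 1 library a group, no replicate could be left out. No paired analysis was possible because each group is 1 library and the labels give no replicate numbers. Odc1 has no value with photoreceptor-like CPM subtracted in any class, nor has Slc7a2 or Ass1 in neutrophil-like cells, since the remainder was not above 0, and Slc7a2 has none there with each cluster counted once, since it had 0 UMIs in a cluster. In myeloid-like cells the stricter cell filter (1000 UMIs, 500 genes, 5% mitochondrial) left 1510 of 1791 aCXCR2 and 474 of 623 NRS cells and turned Arg1 to -0.20 and Nos2 to -0.084, with Slc7a2 at -1.40 and Ass1 at 0.76. The mean over cells of per-cell CPM gave Arg1 0.094, Arg2 0.54, Slc7a2 -0.68 and Ass1 0.86. Subtracting photoreceptor-like CPM gave Arg1 0.016, Arg2 1.10, Nos2 -0.42 and Ass1 1.28, and removing the highest doublet scores gave Arg1 0.046. Counting each cluster once gave Arg1 0.38, Nos2 1.83, Slc7a2 -0.28 and Ass1 0.81. The cause of these shifts was not tested. The other 54 myeloid-like values of the members, including Odc1 under each alternative that gave a value, stayed inside their counting intervals. The number of genes at least 2-fold apart in myeloid-like cells was 401, against 195 with a minimum of 50 CPM and 1152 with a minimum of 1 CPM. In neutrophil-like cells it was 2213 (259 higher and 1954 lower), against 1242 (863 and 379) with TMM factors, 1249 with median of ratios factors, 767 with a minimum of 50 CPM and 4560 with 1 CPM, and in all kept cells 1830 (334 and 1496), against 1799 (961 and 838) with TMM factors and 1182 with the stricter filter. Arg2 in neutrophil-like cells turned to -0.16 with each cluster counted once and to -0.018 without clusters 0 and 1, where Nos2 (0.75) and Arg1 (0.95) were under 2-fold and 616 genes were 2-fold apart, against 1396 without cluster 0 and 2039 without cluster 1. Ass1 in photoreceptor-like cells turned to 0.24 at resolution 0.5, 0.28 at resolution 2, 0.41 with libraries clustered separately and 0.23 with the members kept in the clustering. Within single clusters, 128 of the values under the alternatives stayed inside their counting intervals and 7 moved with no change of sign. Low counts limit Slc7a2 and Ass1 in neutrophil-like and photoreceptor-like cells. They also limit Nos2 in NRS clusters 4, 5, 8 and 9, which had 19, 19, 18 and 9 UMIs.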
